A study of Mus musculus with 240 samples.

Results

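The oxidative phosphorylation subunits were 96 protein-coding genes, taken by symbol from 22003 protein-coding genes among the 34623 genes of the count table. They comprised 83 nuclear genes and 13 genes of the mitochondrial genome. The symbols were those named for complex I (Nduf followed by a, b, c, s or v and a digit, without Ndufa4l2, and mt-Nd), complex II (Sdha to Sdhd), complex III (Uqcr and mt-Cytb), complex IV (Cox4 to Cox8 and mt-Co) and complex V (Atp5 and mt-Atp). A gene taken by symbol, as Atp5s, Atp5sl and Cox7a2l were, need not encode a structural subunit of the complex it is counted in. The nuclear genes divided into 35 of complex I, 4 of complex II, 8 of complex III, 19 of complex IV and 17 of complex V, with Ndufa4 counted in complex IV and Atp5s and Atp5sl counted in complex V. The mitochondrial genes divided into 7, 0, 1, 3 and 2 in the same order.

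Oxidative phosphorylation takes electrons from NADH at complex I and from succinate at complex II, passes them through ubiquinone, complex III and cytochrome c to oxygen at complex IV, and uses the proton gradient so built to make ATP at complex V. Complexes I, III, IV and V are assembled from proteins of both genomes, complex II from nuclear proteins alone. Oligodendrocyte precursor cells (OPCs) are dividing glial cells that use respiration as well as glycolysis, and a lower reliance on respiration has long been discussed for glioma.

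The libraries came from tdTomato-positive OPCs in mouse brain sections, isolated by laser capture microdissection. Bulk libraries, from 10 µm sections and total RNA amplified with T7 polymerase, belonged to 37 animals in 6 groups: mice with the genotype Trp53-/- Nf1-/- (CKO) at 12 (n = 7) and 90 dpi (n = 7), tumours of that genotype at 150 dpi (n = 7), and wild-type mice (WT) at 12 (n = 5), 90 (n = 5) and 150 dpi (n = 6), where dpi counts days from the start of tamoxifen. The labels time WT mice from tamoxifen as well, and the driver of recombination is not given in the sources used here. Small libraries, from 8 µm sections and polyA RNA amplified by PCR, were all Trp53-/- Nf1-/-: at each of 12 and 90 dpi there were 56 libraries of 10 cells captured together (10-cell) and 40 control libraries, each an aliquot of many captured cells that were first combined (pool-and-split).

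Depth and quality bear on every value below. In units of 1000000 counts, totals ran from 0.0937 to 31.3 per bulk animal (median 10.7), from 1.64 to 6.49 per 10-cell library and from 1.91 to 5.16 per control library. The shallowest animal, WT_21167 at 90 dpi, had 0.0937. The targeted gene Nf1 was at 176 to 216 counts per 1000000 (CPM) in CKO against 261 to 357 in WT animals at 12 dpi, at 149.5 to 302 against 274 to 343 at 90 dpi, and at 149 to 273 in tumours against 252 to 355 in WT at 150 dpi. Trp53 overlapped between the genotypes at each time, with 18.5 to 77.8 CPM in tumours and 11.3 to 33.7 in WT at 150 dpi. In 4 animals (Tumor_16839, Tumor_21256, WT_21591 and WT_21592) AT-rich genes were over-represented: genes of 40% GC lay 1.10 to 1.36 log2 units above genes of 60% GC, against -0.53 to 0.15 in the other 33 animals. Median GC was 50.2% for the nuclear subunits, 37.1% for the mitochondrial ones and 49.2% for all genes tested, so results are given with and without these 4 animals. All tumour libraries, but of the comparison groups only those of 3 CKO animals at 90 dpi, carry a barcode in their label, so barcoding and tumour cannot be told apart in the comparison with WT.

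Cell type markers differed between tumours and the other groups as well. Summed neuron markers were at 309 to 1678 CPM in tumours, 8321 to 11878 in WT at 150 dpi and 8642 to 16508 in CKO at 90 dpi, with 11 of 12 and 12 of 12 lower and none at 0. Summed OPC markers were at 6090 to 16912 CPM in tumours and 3254 to 6325 in WT, with 13 of 16 higher against either group, and 20 of 20 proliferation genes were higher. Of 14 microglia markers 13 were higher against WT and 14 against CKO, and of 13 oligodendrocyte markers 7 and 8 were lower and 1 and 0 higher. Of 12 astrocyte markers 7 were higher and 3 lower against either group, and of 10 endothelial markers 2 were lower against WT and 2 higher against CKO. The part of these markers in the subunit results was not tested, and in bulk samples fewer cells of a type cannot be told apart from less RNA per cell.

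Promoter windows of 5 complex I, IV and V subunits that were lower in tumours than in CKO cells are shown, because each holds a motif of a factor known for respiratory genes. The windows run from 120 bases before to 20 bases after the RefSeq start on GRCm38.p6, written 5′ to 3′ along the gene, with the motif in capitals. NRF1 (GCATGCGC) is in Ndufa11 (chr17:56717642-56717781, plus strand), on both strands in overlap, and in Ndufa6 (chr15:82354272-82354411, minus strand). The ETS motif bound by GABPA (CCGGAAGT) lies on the opposite strand in Ndufs3 (chr2:90904702-90904841, minus strand) and Cox8a (chr19:7217597-7217736, minus strand). YY1 (AAGATGGC) is in Atp5j (chr16:84834957-84835096, minus strand).
Ndufa11: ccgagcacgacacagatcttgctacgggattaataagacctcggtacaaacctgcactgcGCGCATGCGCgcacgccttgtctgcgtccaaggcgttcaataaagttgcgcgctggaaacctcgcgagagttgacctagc
Ndufa6: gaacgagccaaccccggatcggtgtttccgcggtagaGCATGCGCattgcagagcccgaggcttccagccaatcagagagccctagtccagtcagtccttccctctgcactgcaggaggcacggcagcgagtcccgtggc
Ndufs3: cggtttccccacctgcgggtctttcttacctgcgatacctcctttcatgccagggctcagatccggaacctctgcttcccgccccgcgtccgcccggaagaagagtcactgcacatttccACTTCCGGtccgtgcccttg
Cox8a: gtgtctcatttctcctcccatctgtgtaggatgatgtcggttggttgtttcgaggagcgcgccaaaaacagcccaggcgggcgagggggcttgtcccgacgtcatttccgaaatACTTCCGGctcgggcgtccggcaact
Atp5j: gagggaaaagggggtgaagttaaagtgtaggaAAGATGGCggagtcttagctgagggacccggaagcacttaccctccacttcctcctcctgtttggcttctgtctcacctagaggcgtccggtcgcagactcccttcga

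Over windows of 250 bases before to 50 after the start, searched on both strands, 66 of the 83 nuclear subunits matched a RefSeq gene. NRF1 was in 15.2% of them against 3.05% of all 27025 genes with a window, and YY1 in 13.6% against 3.19%. The ETS motif was in 7.58% against 4.31%, and the motif of the estrogen-related receptors (TCAAGGTCA) in 3.03% against 0.466%. At least 1 of the 4 motifs was in 37.9% of the subunits against 10.4% of all genes with a window. The subunits lower in tumours than in CKO cells and the subunits not called there held a motif about as often, in 12 of 31 (38.7%) and 13 of 31 (41.9%) matched genes. A match describes the letters in the window, not a bound site.

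Across the 37 bulk animals 11 of the 13 mitochondrial transcripts stood above every nuclear subunit. Per kilobase of exon length (GENCODE M21, all exons of the gene), mean levels were 5725 CPM per kb for mt-Co1, the catalytic subunit of complex IV, 2339 for mt-Nd1, 2154 for mt-Co2, 2109 for mt-Cytb, 2016 for mt-Atp6, 1975 for mt-Nd4, 1762 for mt-Co3, 1215 for mt-Nd5, 679 for mt-Nd6, 557 for mt-Nd2, 420.2 for mt-Nd4l, 296 for mt-Atp8 and 269 for mt-Nd3. Among nuclear subunits the catalytic beta subunit of ATP synthase, Atp5b, was at 355 CPM per kb, Cox6a1 at 245, Cox8a at 244, Cox7c at 171, Ndufc2 at 170.4 and Cox4i1 at 169. The mean of Cox6b1, 292 CPM per kb, was set by 1 tumour described below. The isoform families of complex IV were each carried by 1 gene or a few: Cox4i2, an isoform of lung known for its response to low oxygen, was at 1.70 CPM per kb, the testis isoforms Cox6b2 and Cox7b2 at 1.55 and 0.932, and the heart and muscle isoforms Cox7a1, Cox6a2 and Cox8b at 1.38, 0.296 and 0.210. Cox8c was at 0. Of the 3 genes for subunit c of the ATP synthase ring, Atp5g3 was at 134, Atp5g1 at 20.6 and Atp5g2 at 17.4 CPM per kb.

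After the filter on low counts 79 of 83 nuclear subunits and 13 of 13 mitochondrial ones were tested among 16349 genes. Cox6a2, Cox7a1, Cox8b and Cox8c were not. With the groups centred, log2 levels over the 37 animals correlated at a median r of 0.37 between 2 nuclear subunits, 0.58 between 2 mitochondrial ones and 0.19 across the genomes. These pairs share libraries, depth and GC content, and the values are a description.

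The nuclear subunits together took 1.008 ± 0.0328% of counts in WT (SD, n = 5) and 0.921 ± 0.0889% in CKO animals (SD, n = 7) at 12 dpi, 0.939 ± 0.108% (SD, n = 5) and 0.902 ± 0.0728% (SD, n = 7) at 90 dpi, and 0.845 ± 0.217% in WT (SD, n = 6) and 0.779 ± 0.242% in tumours (SD, n = 7) at 150 dpi. The tumour value held 1 extreme: without Cox6b1 it was 0.708 ± 0.138%. The mitochondrial subunits took 3.12 ± 0.682% and 2.03 ± 0.816%, 2.02 ± 0.264% and 2.15 ± 0.764%, and 2.46 ± 0.378% and 2.45 ± 0.931% in the same groups. Their shares overlapped between genotypes at each time, and tumours ranged from 1.28 to 3.87%.

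**Figure D1:**
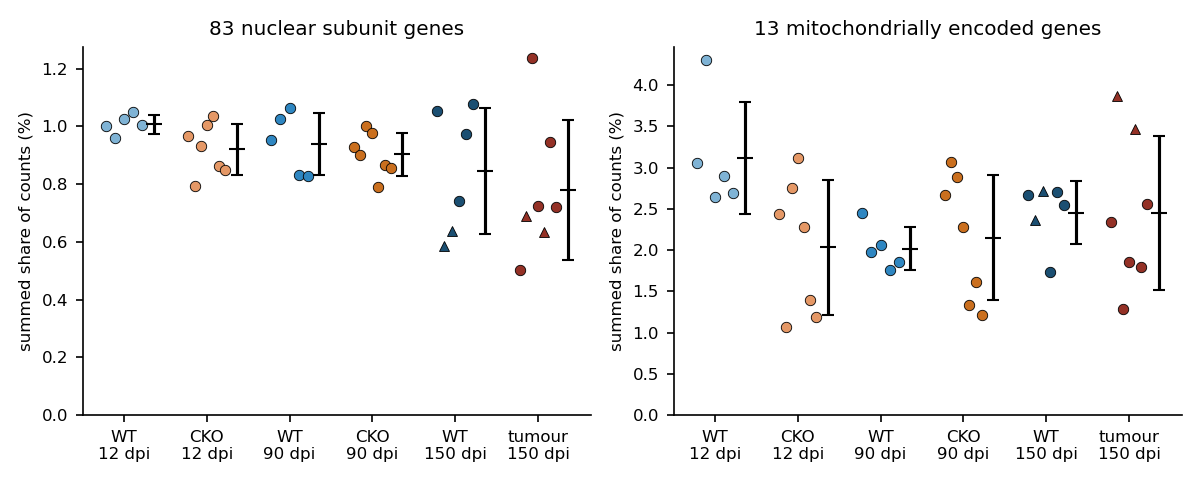
Summed share of counts (%, y axis) of the nuclear subunits on the left and the mitochondrial subunits on the right, 1 point per animal by group, with the bar at the mean ± SD and triangles for the 4 AT-rich animals. Nuclear shares in tumours ran from 0.501 to 1.24% and in WT at 150 dpi from 0.586 to 1.08%, so the groups overlapped.

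The comparison of tumours with WT cells of the same age asked which subunits differ once a tumour has formed, and the comparison with CKO cells at 90 dpi asked the same against mutant cells before a tumour. More nuclear subunits were called lower than higher. Against WT 28 of 79 were called lower and 2 higher (edgeR, adjusted p under 0.05 over all genes), where 46.2% of all genes were called, 21.9% lower and 24.3% higher. Against CKO 37 were called lower and 3 higher, where 49.1% of all genes were called, 22.6% lower and 26.4% higher. The share called lower was thus 35.4% and 46.8% of the tested nuclear subunits. Their median log2 change was -0.41 and -0.45, beside 0.06 and 0.12 for all genes, with 69 and 67 of 79 below 0. Both comparisons use the same 7 tumours. None of the 13 mitochondrial subunits was called in either (0 and 1 at an unadjusted p under 0.05, and 0 and 1 with DESeq2), with medians of -0.32 and 0.08 (-0.35 against CKO without Tumor_16839).

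**Figure D2:**
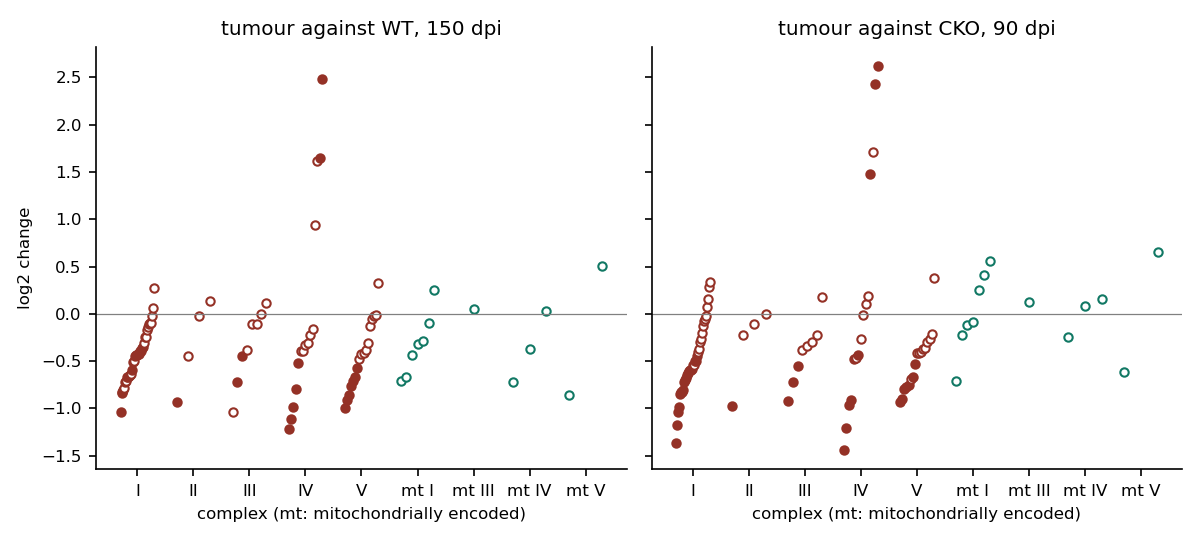
Log2 change of each tested subunit (y axis) by complex (x axis) in tumours against WT at 150 dpi and against CKO at 90 dpi, nuclear genes in red and mitochondrial genes in green, filled where called. In both panels most red points lie below 0 in complexes I, III and V, and no green point is filled.

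Complex I had 13 of 35 subunits lower against WT and 20 of 35 lower against CKO, with 0 higher, and medians of -0.44 and -0.54. Ndufv1 (chromosome 19, 4007497 to 4012806) encodes the flavin-carrying core subunit that takes electrons from NADH. It was at 18.6, 27.9 and 53.0 CPM (lowest, median and highest) in tumours, at 27.8, 67.9 and 83.8 in WT at 150 dpi, and at 67.1, 78.7 and 88.9 in CKO at 90 dpi. The tumours overlapped with the WT animals, the 2 lowest of which were the AT-rich WT_21591 and WT_21592, and lay below every CKO animal. The log2 change was -1.04 (SE 0.21, adjusted p 9.28e-05) against WT and -1.37 (SE 0.20, adjusted p 6.79e-07) against CKO.

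Ndufb2 (chromosome 6, 39592574 to 39603382), an accessory subunit of the membrane arm, lay below both groups in every tumour, at 27.4, 36.2 and 45.9 CPM against 50.2, 63.8 and 84.1 in WT and 61.8, 73.0 and 100.5 in CKO (log2 change -0.80, SE 0.14, adjusted p 1.44e-05, and -1.04, SE 0.14, adjusted p 7.60e-08). Ndufs4, an accessory subunit needed for a stable complex and a known gene of Leigh syndrome, also separated fully, at 23.9 to 57.8 CPM in tumours, 59.7 to 124.5 in WT and 65.2 to 82.6 in CKO (-0.72 and -0.64). In all, 3 of 79 nuclear subunits did not overlap against WT (Ndufb2, Ndufs4 and Cox5a). Of all genes 15.7% did not (8.96% with tumours lower). Against CKO 9 did not (the same 3, Ndufv1, Ndufa11, Ndufs3, Sdha, Cox8a and Cox7a2), where 17.2% of genes did not (10.5% with tumours lower). Full separation was thus less common in the subunits than in all genes against WT. With tumours lower it was about as common against CKO. Neither count is a result about the subunits.

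Ndufs1, an iron-sulfur core subunit, changed by -0.59 (SE 0.16, adjusted p 0.00263) and -0.70 (adjusted p 2.76e-04), with 59.9 to 99.6 CPM in tumours and 86.9 to 131 in WT. Ndufs3 changed by -0.83 and -0.81. Ndufa11, with 8.39 to 37.7 CPM in tumours and 0 to 88.7 in WT, was called against CKO (-1.18, adjusted p 0.0162) and not against WT (-0.78, SE 0.42). Members at the other end included Ndufa7 (0.27 and 0.16), Ndufc2 (0.06 and 0.34) and Ndufb11 (-0.02 and -0.07), none of them called.

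Complex II differed among its own 4 subunits. Sdha (chromosome 13, 74322254 to 74350280), the flavoprotein that oxidizes succinate, was at 115, 157 and 234 CPM in tumours, at 195, 329.8 and 371 in WT and at 259, 305 and 419 in CKO. Only WT_21593, at 195, fell within the range of the tumours. The log2 change was -0.93 (SE 0.15, adjusted p 2.94e-06) against WT and -0.98 (SE 0.15, adjusted p 6.64e-07) against CKO. The iron-sulfur subunit Sdhb was at 33.0, 58.0 and 79.4 CPM in tumours and 29.0, 55.9 and 94.0 in WT, with changes of -0.02 (SE 0.21) and -0.11 (SE 0.20), and the membrane anchors Sdhc (0.13 and -0.01) and Sdhd (-0.45 and -0.22) were not called either. The difference between Sdha and the other subunits was not itself tested.

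Complex III had 2 and 3 of 8 nuclear subunits lower. Uqcrc1 (chromosome 9, 108936633 to 108949623), a core protein of the matrix side, was at 22.0, 36.8 and 55.6 CPM in tumours, at 31.6, 65.8 and 69.0 in WT and at 45.6, 65.6 and 99.1 in CKO, so the groups overlapped. Its change was -0.72 (SE 0.22, adjusted p 0.00724) and -0.92 (SE 0.21, adjusted p 4.62e-04). The other core protein, Uqcrc2, changed by -0.44 (adjusted p 0.0176) and -0.72 (adjusted p 1.26e-04), and the hinge protein Uqcrh was called against CKO alone (-0.55, adjusted p 0.0164). The Rieske iron-sulfur protein Uqcrfs1, which hands electrons to cytochrome c1, was not called (0.11, adjusted p 0.804, and 0.18, adjusted p 0.642). It ran from 33.3 to 123 CPM in 6 tumours and stood at 322 in Tumor_16839, 1 of the AT-rich animals. Without the 4 AT-rich animals it was lower against both groups, by -0.65 (adjusted p 0.00550) and -0.66 (adjusted p 0.00138).

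Complex IV held the largest fall in each comparison and every rise among the subunits called. Cox5a (chromosome 9, 57521274 to 57532426), a matrix-side subunit, was at 24.1, 65.1 and 105 CPM in tumours, at 108, 174 and 218 in WT and at 128, 168 and 209.9 in CKO. Every tumour lay below every animal of both groups, with a log2 change of -1.21 in each (SE 0.22, adjusted p 1.55e-05, and SE 0.21, adjusted p 9.61e-06). Cox8a (chromosome 19, 7215158 to 7217616), the smallest subunit and the main isoform outside muscle, was at 42.8, 65.8 and 85.4 CPM in tumours, at 83.3, 145 and 180.1 in WT and at 108, 174 and 298 in CKO.

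Only WT_21591 and WT_21592, at 84.7 and 83.3 CPM, reached the range of the tumours for Cox8a, which changed by -1.11 (SE 0.26, adjusted p 6.72e-04) and -1.44 (SE 0.26, adjusted p 1.53e-05). Cox5b, a zinc-binding subunit, changed by -0.99 and -0.91, Cox7a2 by -0.79 and -0.96, and Ndufa4, once placed in complex I, by -0.52 and -0.48. Cox4i1, an early partner in assembly of the complex, was at 139 to 314 CPM in tumours and 138 to 325 in WT and was called against CKO (-0.44, adjusted p 0.0389, and 0.140 without CKO_20647) and not against WT (-0.31, adjusted p 0.177). Cox6a1 (-0.16 and -0.26), Cox7b (-0.39 and -0.47) and Cox7a2l (-0.23 and 0.11) were not called.

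**Figure D3:**
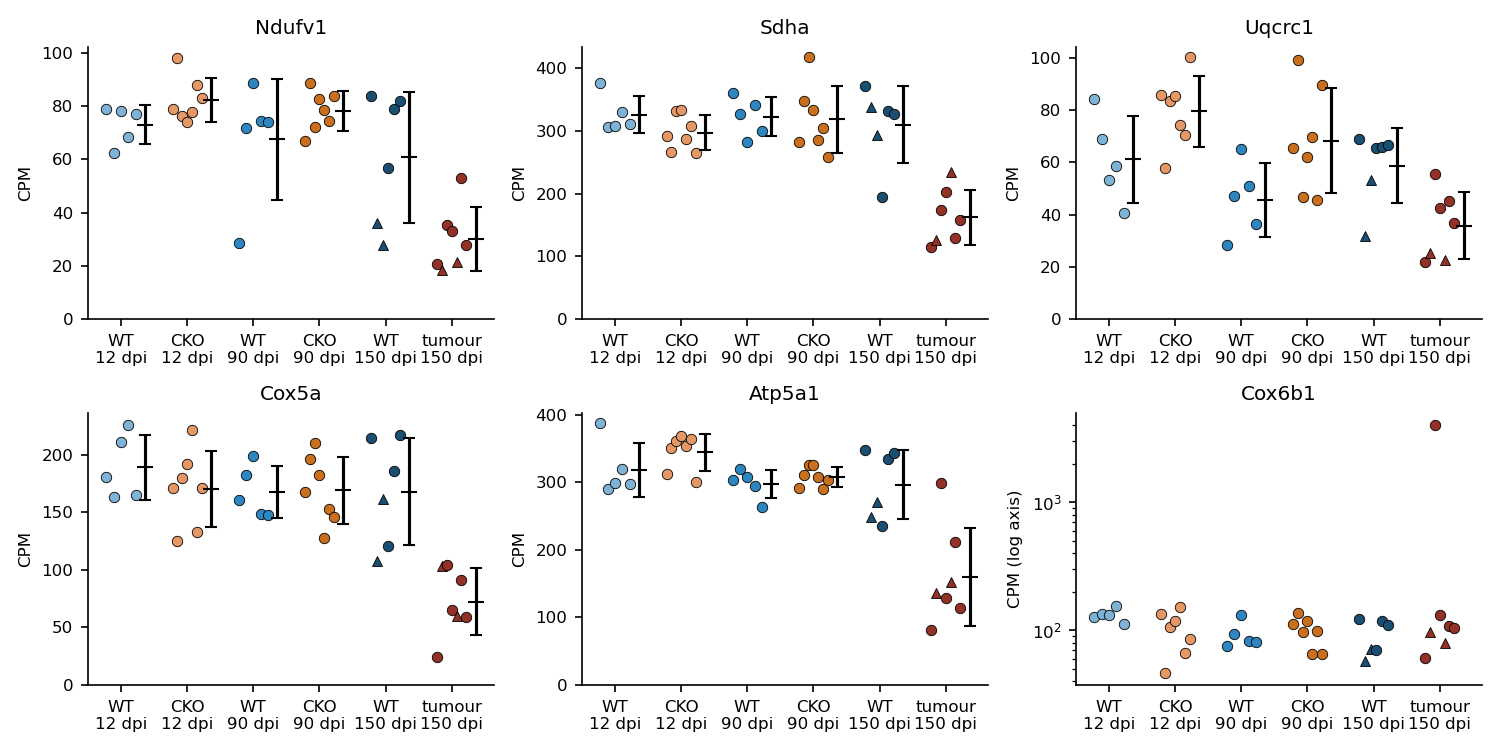
CPM per animal (y axis) in the 6 bulk groups for Ndufv1, Sdha, Uqcrc1, Cox5a, Atp5a1 and Cox6b1, with bars at the mean ± SD and triangles for the 4 AT-rich animals, and a log axis with no bars for Cox6b1. Cox5a in tumours, at 24.1 to 105 CPM, lies below the other groups, and Tumor_16840 holds Cox6b1 at 3974 CPM.

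The rises of complex IV rested on few animals. Cox6b1 (chromosome 7, 30616861 to 30626151), which faces the intermembrane space near the cytochrome c site, was at 61.3 to 131 CPM in 6 tumours and at 3974 in Tumor_16840, against 46.8 to 154 in all other bulk animals. Its fitted change was 2.49 (SE 0.69, adjusted p 0.00309) against WT and 2.43 (SE 0.64, adjusted p 0.00187) against CKO, and 0.11 and -0.018 without that tumour. Cox6b2 was called higher (1.64, adjusted p 0.0248, and 1.47, adjusted p 0.0249) at levels of 1.10 to 12.8 CPM in tumours and 0 to 2.67 in WT. Cox4i2 was called against CKO (2.62, SE 0.77, adjusted p 0.00461), with 16.1 CPM in Tumor_16840 and 0.395 to 2.12 in the other tumours, and not against WT (0.94, adjusted p 0.329). Without Tumor_16840 Cox4i2 was at 1.40 (adjusted p 0.0751) against CKO, and without Tumor_16844, which held the 12.8 CPM, Cox6b2 was at 1.14 (adjusted p 0.112) and 0.95 (adjusted p 0.139). Of these 3, 0 stayed called when each animal was left out in turn.

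The level of Cox6b1 in Tumor_16840 belonged to a stretch of neighbouring genes, found after its value was seen. Both libraries of the animal held it, at 4178 and 4445 CPM of the library's own total, without TMM scaling, against 66.2 to 172 on the same scale in the libraries of the other tumours. In a run of 52 consecutive tested protein-coding genes from Zfp27 to Gramd1a (chromosome 7, 29893333 to 31155896, 1263 kb), 45 were over 4-fold above the median of the other 6 tumours, and 45, not all of them the same genes, were above every other bulk animal. The median log2 difference over the run was 4.73 (26.6-fold), with a range from -1.15 to 6.17. The 10 flanking genes had a median of -0.06 and a highest value of 0.62. The run was drawn outwards from Cox6b1 until successive genes were not over 4-fold, so its flanking genes could not be over 4-fold. Gramd1a starts 513 kb from Cox6b1, and the next tested protein-coding gene, Wtip, starts 3493 kb from it. That edge is therefore not located. Of all 16349 genes tested, 185 were over 4-fold in this tumour.

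Other respiratory genes in the stretch were high in Tumor_16840 as well. The muscle isoform Cox7a1 (chromosome 7, 30184144 to 30186078), not tested for its low level, was at 14.0 CPM there, at 0.27 to 0.86 in the other tumours and at 2.01 at most in the remaining animals. The complex II assembly factor Sdhaf1 (chromosome 7, 30321406 to 30323895) was at 219 CPM, against a median of 9.41 in the other tumours. Among 553 pairs of a tested nuclear subunit and a tumour, 4 had neighbouring genes with a median log2 difference above 1: Cox6b1 in Tumor_16840, and Sdhd, Ndufa1 and Ndufa4 in the AT-rich Tumor_16839. The neighbours of Cox4i2 in Tumor_16840 had a median of -0.25. DNA copy number was not analysed here.

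**Figure D4:**
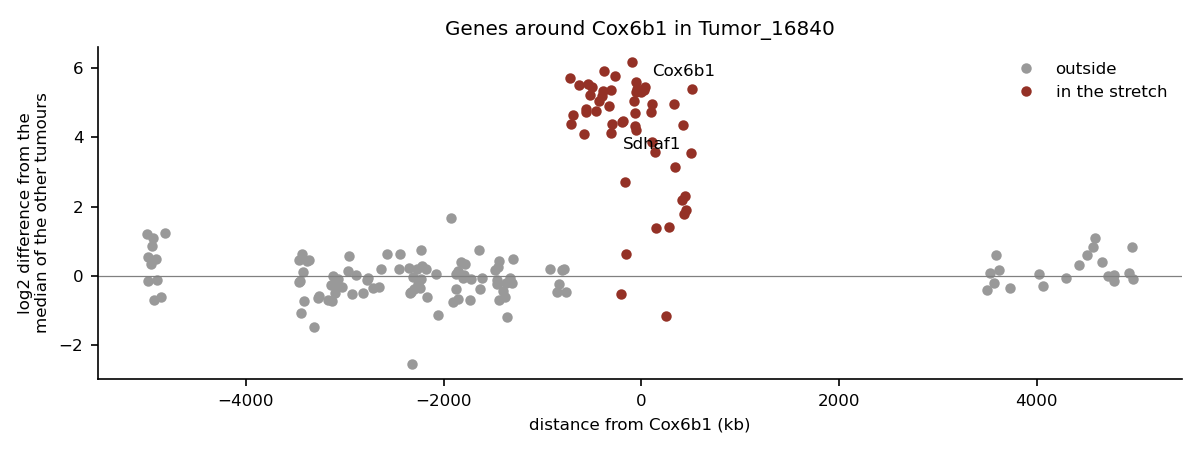
Log2 difference between Tumor_16840 and the median of the other 6 tumours (y axis) for tested genes against their distance from Cox6b1 (x axis, kb), in red within the stretch and in grey outside. The red genes have a median of 4.73 and the 10 genes flanking them a median of -0.06. The stretch was drawn by the 4-fold limit, so the flanking genes lie under it by definition.

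Complex V had 7 of 17 nuclear subunits lower in each comparison. Atp5a1 (chromosome 18, 77773729 to 77782869), the alpha subunit of the catalytic head, was at 81.8, 136 and 299 CPM in tumours, at 235, 302 and 348 in WT and at 289.5, 308 and 326 in CKO. Tumor_16840, at 299 CPM, was the only tumour within the WT range, and the change was -0.91 (SE 0.17, adjusted p 3.04e-05) and -0.93 (SE 0.16, adjusted p 1.18e-05). The beta subunit Atp5b, its partner in the head, was at 752, 978 and 2445 CPM in tumours and 814, 1358 and 1708 in WT and was not called (-0.06, adjusted p 0.846, and -0.37, adjusted p 0.116). The gamma subunit Atp5c1, subunit d (Atp5h), the coupling factor Atp5j and Atp5sl, counted here by symbol alone, were lower in both comparisons, by -0.53 to -0.90.

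The subunit c genes differed in the group against which they were called. Atp5g3, the highest of them, was called lower against WT (-0.86, adjusted p 0.0120) and not against CKO (-0.22, adjusted p 0.536). It ran from 107 to 470.2 CPM in tumours and from 186 to 846 in WT, where the highest animal was the AT-rich WT_21592, and without that animal the change was -0.55 (adjusted p 0.0971). Atp5g1 was called lower against CKO (-0.78, adjusted p 0.00163) and not against WT (-0.47, adjusted p 0.0625), and Atp5g2 was not called (0.33 and 0.38). Atp5g2 shares a transcript of at least 95% identity with the pseudogene Gm10175, which held 77.4% of their summed bulk counts, so its level is uncertain.

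Without the 4 AT-rich animals the nuclear result was larger and some mitochondrial subunits were called. Against WT 42 nuclear subunits were lower and 2 higher (median -0.61), and against CKO 41 were lower and 4 higher (median -0.54). Of all 16878 genes tested in that fit, 3591 were lower and 3935 higher against WT, and 4084 and 4568 against CKO. The main nuclear falls held, with Cox5a at -1.42 and -1.29, Cox8a at -1.23 and -1.30, Ndufv1 at -1.14 and -1.20, Sdha at -0.97 and -1.03, Atp5a1 at -0.93 and -0.89 and Uqcrc1 at -0.72 and -0.75. Cox4i1 was then called against WT (-0.45, adjusted p 0.0471) and no longer against CKO (-0.34, adjusted p 0.0810).

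Some mitochondrial transcripts changed strongly with these animals. mt-Nd3, a small core subunit of complex I, was at 446 and 334 CPM in the AT-rich tumours and at 5.16 to 31.0 in the other 5, and at 442 and 357 CPM in the AT-rich WT animals and at 17.3 to 148 in the other 4. With all animals its change was -0.71 (SE 0.70) against WT and 0.25 (SE 0.73) against CKO, and without the 4 it was -2.02 (adjusted p 0.00685) and -1.92 (adjusted p 0.00412). mt-Atp6, the proton channel subunit of complex V, changed by -0.86 and -0.62 with all animals and by -1.68 (adjusted p 0.0128) and -1.47 (adjusted p 0.0140) without the 4.

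In that smaller set mt-Co2 (-1.48), mt-Nd2 (-1.22) and mt-Nd4 (-0.76) were also lower against WT, and mt-Nd2 (-0.97) against CKO, for 5 and 3 of 13 called. mt-Co1 (-0.04 and -0.16) and mt-Cytb (-0.29 and -0.20) were not called. With all animals mt-Co1 was at 5017, 8349 and 15167 CPM in tumours and at 7091, 8036 and 13253 in WT, and changed by 0.03 (SE 0.23) and 0.08 (SE 0.23). The other mitochondrial changes against WT and CKO were -0.44 and -0.71 for mt-Nd4l, -0.29 and -0.09 for mt-Nd1, -0.10 and 0.41 for mt-Nd5, 0.25 and 0.56 for mt-Nd6, -0.37 and 0.15 for mt-Co3 and 0.50 and 0.66 for mt-Atp8. The smallest adjusted p among all 13 was 0.161 against WT and 0.0794 against CKO, the latter for mt-Nd6. With GC content as an offset per animal in place of leaving animals out, 29 and 37 nuclear subunits were lower, and 0 and 1 mitochondrial ones. Of all 16276 genes tested with the offset, 3729 were lower against WT and 3897 against CKO.

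Single tumours differed in their distance from WT over the nuclear subunits. The median log2 difference from the WT animals at 150 dpi was -0.92 in Tumor_16713, -0.44 in Tumor_21256, -0.37 in Tumor_21354, -0.32 in Tumor_16839 and in Tumor_16844, -0.18 in Tumor_16840 and -0.02 in Tumor_21349. By the same measure the single WT animals at 150 dpi ran from -0.42 (WT_21592) to 0.44 (WT_22064). Only Tumor_16713 and Tumor_21256 lay below that range. Against the 3 CKO animals with barcoded libraries alone, 31 nuclear subunits were lower and 0 higher, with the share of all genes called not given here.

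A further test asked whether the tumour against WT difference departs from the CKO against WT difference at 90 dpi. It called 12 of 79 nuclear subunits lower and 1 higher. Of all genes 30% were called, 15.8% lower and 14.2% higher. The subunits were thus called lower about as often as genes in general, and higher less often. This count is no result about the subunits. Their median log2 value was -0.48, beside 0.04 for all genes, with 71 of 79 below 0. Lower in this test were Uqcrc1 (-1.23, adjusted p 0.00400), Cox5a (-1.23, adjusted p 0.00299), Cox8a (-1.19), Ndufv1 (-1.14), Cox5b (-1.01), Atp5a1 (-0.96), Sdha (-0.92, adjusted p 0.00125), Ndufs3 (-0.82), Atp5j (-0.72), Ndufb2 (-0.72), Ndufs4 (-0.67) and Ndufs1 (-0.62). Cox4i2 was higher (3.07, adjusted p 0.0316, and 1.81, adjusted p 0.157, without Tumor_16840). The calls of Cox8a and Ndufs1 were lost without WT_22064 (-1.02, adjusted p 0.0550, and -0.52, adjusted p 0.102), among other single animals. No mitochondrial subunit was called by edgeR (2 unadjusted, 0 with DESeq2). Without the 4 AT-rich animals 26 nuclear subunits were lower and 3 higher, and mt-Nd3 (-3.71), mt-Atp6 (-2.50) and mt-Co2 (-2.07) were lower. Of all 16878 genes tested in that fit, 2925 were lower and 2599 higher.

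Before a tumour, edgeR called none of the 92 tested subunits between CKO and WT cells, where 0.0183% of all genes were called at 12 dpi and 0.0489% at 90 dpi, and DESeq2 called 0 as well. At 12 dpi 67 of 79 nuclear and 13 of 13 mitochondrial subunits were below 0, with medians of -0.27 and -0.84 beside 0.03 for all genes, and 7 and 4 were under an unadjusted p of 0.05. The largest nuclear differences were Uqcrb, a ubiquinone-binding subunit (-1.30, SE 0.57), Ndufb4 (-0.88, SE 0.37), Uqcrc1 (0.35) and Atp5b (0.27). mt-Nd3 differed by -1.36 and mt-Nd5 by -0.84 (SE 0.30), and the smallest adjusted p was 0.943.

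The mitochondrial values at 12 dpi were spread within both groups. mt-Co1 was at 8096, 8143, 8241, 11457 and 16995 CPM in the 5 WT animals and at 4623, 8604 and 11707 CPM (lowest, median and highest) in the CKO animals. The groups overlapped, with WT_22178 the highest of all. At 90 dpi the medians were 0.02 for the nuclear and 0.18 for the mitochondrial subunits (2 and 1 unadjusted, smallest adjusted p 0.834). The largest values were Cox4i2 (-2.13, SE 0.80) and Cox7b2 (-1.17) on one side and Uqcrb (0.90) and Uqcrc1 (0.51) on the other, and mt-Nd3 differed by 1.69. The difference between the genotype effects at 90 and at 12 dpi was called for 0 subunits (0 called of all genes, a percentage of 0, with nuclear and mitochondrial medians of 0.28 and 1.09, 2 and 5 unadjusted, and 0 with DESeq2).

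Over time 0 subunits were called in CKO cells from 12 to 90 dpi (0% of all genes called), in WT cells from 12 to 90 dpi (0.00612%) or in WT cells from 90 to 150 dpi (0.0183%), and 0 with DESeq2. In CKO cells the nuclear and mitochondrial medians were 0.05 and 0.29 (0 and 0 unadjusted), with Cox4i2 (-1.03), Sdhb (-0.29), Uqcrb (0.87) and Cox6b2 (0.49) at the ends. In WT cells they were -0.24 and -0.85 from 12 to 90 dpi (1 and 5 unadjusted), with Uqcrb (-1.33), Ndufb3 (-0.76), Cox7b2 (1.31) and Cox4i2 (0.87) at the ends, and -0.06 and 0.50 from 90 to 150 dpi (2 and 2 unadjusted), with Uqcrb (1.72), Ndufb3 (1.32), Cox7b2 (-1.08) and Cox4i2 (-0.45).

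mt-Nd3 had the largest values of the mitochondrial subunits in WT cells, -2.05 and then 2.65, neither of them called. The WT animals at 90 dpi were at 0, 19.6, 21.4, 23.8 and 34.8 CPM, against 57.6 to 139 in the 5 WT animals at 12 dpi and 17.3 to 442 at 150 dpi. The value of 0 belonged to the shallow WT_21167, in which mt-Co3 was at 0 too. The groups at 12 and 90 dpi did not overlap for 8 of 13 mitochondrial subunits, mt-Nd3 among them, and 1 of 79 nuclear ones (2.96% of all genes, 1.74% with the animals at 90 dpi lower). When these 10 animals, WT_21167 among them, were fitted alone, 7 nuclear and 7 mitochondrial subunits were called lower at 90 dpi. The share of all genes called in that fit is not given here, so these counts are no result about the subunits.

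Other lists of mitochondrial and metabolic genes were counted in the same fits, in which 21.9% of all genes were lower and 24.3% higher against WT, and 22.6% and 26.4% against CKO. Shares near these, as for the genes of mitochondrial biogenesis called lower, are no result about a list. Of 46 assembly factors 12 were lower and 4 higher against WT, and 18 lower and 2 higher against CKO (medians -0.27 and -0.30), with Ndufaf5 (-1.61 and -1.48) and the complex V factor Atpaf1 (-1.45 and -1.50) lower. Sdhaf1 (2.05 and 2.49), in the stretch of Tumor_16840, and the copper chaperone Sco1 (0.98 and 0.81) were higher. Of 17 citric acid cycle genes 8 and 12 were lower and 1 higher in each (medians -0.35 and -0.57), with Sucla2 at -0.91 and -1.02, Idh3a at -0.89 and -0.95, and Suclg2 higher at 1.66 and 1.95. Of 78 mitochondrial ribosomal proteins 9 and 13 were lower and 7 and 8 higher (medians 0.11 and 0.08).

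Of 18 genes of mitochondrial biogenesis 4 and 3 were lower and 2 and 4 higher. The coactivators Ppargc1b (-3.13 and -3.19) and Ppargc1a (-1.82 and -1.75), known regulators of respiratory genes, were lower, and the mitochondrial DNA polymerase Polg was higher (1.29 and 1.15). Of 17 glycolysis genes 10 were lower in each comparison and 4 and 3 higher (medians -0.57 and -0.82). The neuronal enolase Eno2 was lower (-3.81 and -4.04), as was Pfkp (-2.36 and -2.66), and hexokinase Hk2 (3.13 and 2.95) and lactate dehydrogenase Ldha (0.93 and 0.69) were higher. Of 12 electron carriers and related genes 5 were lower and 2 higher in each, among them Higd1a (-1.58 and -1.66) and Etfdh (0.71 and 0.81). The part of the cell type markers given above in these counts was not tested.

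In the small libraries the subunits took a larger share of counts. Nuclear subunits made up 4.13 ± 0.877% (SD, n = 56) and 4.00 ± 0.839% (SD, n = 56) of the 10-cell libraries at 12 and 90 dpi, and 3.69 ± 0.498% (SD, n = 40) and 3.95 ± 0.519% (SD, n = 40) of the controls made by pool-and-split, and mitochondrial ones 8.33 ± 3.71%, 8.84 ± 3.27%, 7.08 ± 1.89% and 5.33 ± 1.97%. Bulk and small libraries differ in RNA, amplification and section, so these levels are not compared further. The division of mitochondrial counts between a gene and its nuclear copies also differed: the copy Gm29216 held 11.3% of the counts of it and mt-Co1 in bulk and 75.1% in small libraries, Gm28437 3.53% and 93.8% of those with mt-Co3, and Gm10222 13.9% and 97.5% of those with mt-Nd4l. With copies added, the mitochondrial share of the small libraries was 16.5%, 18.4%, 14.2% and 12.1%.

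Between 12 and 90 dpi, over sets of libraries by sex and the number ending the label (n = 4 sets per time), edgeR called 0 of 82 nuclear and 0 of 13 mitochondrial subunits in 10-cell libraries (0% of 14500 genes called, 15 and 1 unadjusted, 1 and 0 with DESeq2). The medians were -0.27 and -0.14, beside -0.06 for all genes. Sdhb had the largest fall among nuclear subunits (-1.97, SE 0.39, adjusted p 0.515), with sets at 309, 1021, 324 and 498 CPM at 12 dpi and 140, 140, 123 and 132 at 90 dpi. These sets did not overlap, but 1 library at 12 dpi held 10059 CPM, and the medians over libraries were 169 and 105. Atp5g2 changed by -1.07, and the low Cox7b2 and Cox7a1 by 2.50 and 2.42, and mt-Nd3 by 1.13 (SE 0.26, adjusted p 0.630).

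In pool-and-split libraries 0 of 80 nuclear and 0 of 13 mitochondrial subunits were called (0% of 13408 genes, 8 and 3 unadjusted, 0 with DESeq2), with medians of -0.12 and -0.56 beside -0.04 for all genes. The largest differences were Cox4i2 (-2.53), Ndufs1 (-1.77, and -1.01 in 10-cell libraries), Atp5s (1.86) and Sdhd (1.36).

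Spread between 10-cell libraries beyond that of pool-and-split libraries, which carry technical spread alone, was used to ask whether a gene varies between small groups of cells. At 12 dpi 68 of 74 tested nuclear and 12 of 12 tested mitochondrial subunits had a larger standard deviation (SD) of log2(CPM + 1) in 10-cell libraries, with medians of 2.02 against 1.45 and 0.811 against 0.578. None was called by limma (0.0252% of all genes called, 6 and 3 unadjusted), and the smallest adjusted p among the mitochondrial subunits was 0.305, for mt-Co3. The median log2 ratio of the SDs was 0.47 for nuclear and 0.59 for mitochondrial subunits, beside 0.14 for all genes.

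At 90 dpi the order was the other way for the nuclear subunits: 65 of 74 had a smaller SD in 10-cell libraries, with medians of 1.06 against 1.52 and a log2 ratio of -0.41, beside -0.04 for the mitochondrial subunits and -0.07 for all genes. With limma 3 were called smaller (0.701% of all genes called, 31 unadjusted). These were Ndufs8, an iron-sulfur core subunit (SD 1.31 against 2.69, adjusted p 0.0423, smaller in 4 of 4 sets), Ndufb3 (1.40 against 2.78, adjusted p 0.0448, 4 of 4 sets) and Uqcrb (1.13 against 2.26, adjusted p 0.0467, 3 of 4 sets). Ndufs8 was detected in all 56 10-cell libraries and in 39 of 40 pool-and-split controls, at medians of 188 and 73.7 CPM, and Ndufb3 in 56 and 35. Detection in 10-cell libraries was higher at 90 dpi. They held 7743 ± 2428 genes at 12 dpi (SD, n = 56) and 10030 ± 1594 at 90 dpi (SD, n = 56). Of the nuclear subunits they held 73.3 ± 4.97 and 76.3 ± 1.92. The same counts for pool-and-split libraries are not given here. The part of detection in the result was not tested.

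**Figure D5:**
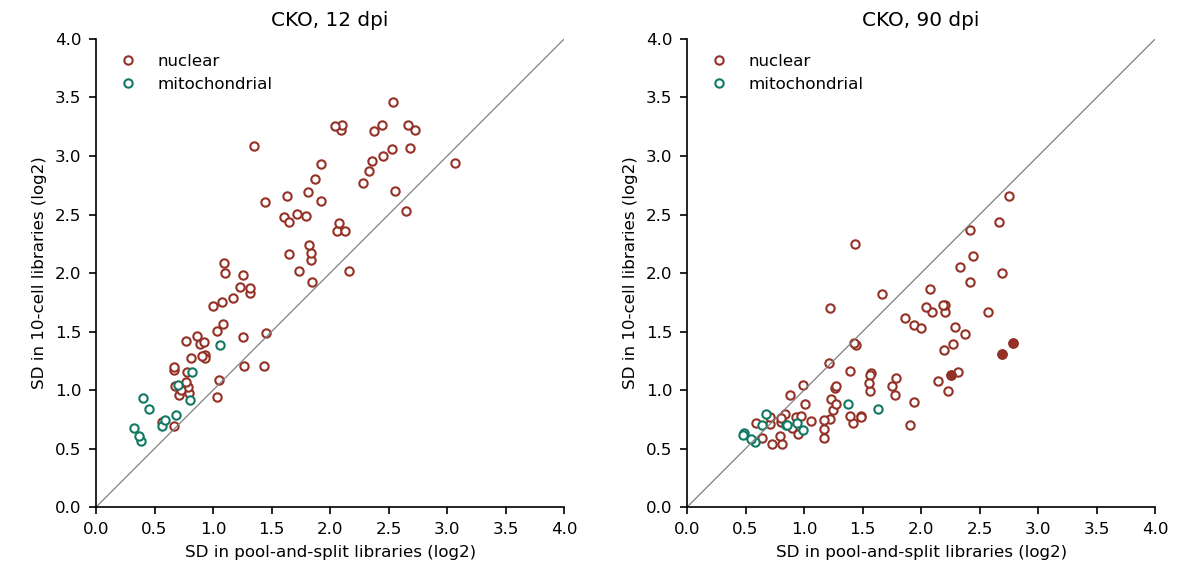
SD of log2(CPM + 1) over libraries, 10-cell (y axis) against pool-and-split (x axis), 1 point per tested subunit, at 12 dpi on the left and 90 dpi on the right, filled where called and with the line of equality. Most nuclear subunits lie above the line at 12 dpi (68 of 74) and below it at 90 dpi (65 of 74).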

How the data were processed

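The authors deposited a table of expected counts per gene, neither scaled nor pooled over replicates as its values show. RSEM, Bowtie2 and GRCm38 are named in the submitters' processing notes, with no version, and gene coordinates are those of the deposited table. The table holds 34623 genes, and its 92 spike-ins were left out of totals and tests. RSEM divides reads that match several genes, so 29 nuclear and 9 mitochondrial subunits with a copy (transcripts alike at 95% of bases or more, over 50% or more of the shorter one) have uncertain levels.

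Expected counts were rounded and the 2 libraries of an animal summed. The test was edgeR's quasi-likelihood test (version 4.0.16, under R 4.3.3) after TMM scaling, with group and sex in the model. The low-count filter was filterByExpr, at a count of 10 and a total of 15. One model held the 37 bulk animals, and others the 4 sets per time of each kind of small library. Each bulk animal is a separate mouse per the labels. The labels do not say what the number of a set is. A gene was called where its p, adjusted by Benjamini and Hochberg across the genes tested, was under 0.05. CPM are per 1000000 of the TMM-scaled total. Between replicates, edgeR's common coefficient of biological variation was 0.418 in bulk, 0.955 in 10-cell sets and 1.08 in pool-and-split sets, which limits the precision. Spread was tested with limma 3.58.1 on absolute deviations of log2(CPM + 1) from the set median, for genes detected in 50% of libraries. The fits were tested on simulated data.

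The members and lists were chosen with earlier results of these data known. Named genes are the mitochondrial subunits, core subunits of each complex, the complex IV isoform families and subunit c genes, the 3 largest called rises and falls per contrast (otherwise the 2 largest values) and the 2 largest called rises and falls per list in either tumour contrast. Other subunits named were chosen after their values were seen. A result that the rule for named genes covers is not reported here. Alternatives were DESeq2 1.42.0, RLE size factors, other filters, no sex covariate, the deepest library per animal, the compared groups alone, mitochondrial genes left out of the scaling, copies added, barcoded CKO animals alone, other pseudocounts (0.1 and 5) and leaving out each animal or set. A GC offset (loess, span 0.4), the fits without 4 AT-rich animals, the addition of near-identical copies and shares without Cox6b1 were added after seeing the data.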

Additional observations from a re-analysis of the deposited data

Results flagged for a closer look

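Of 132 group and measure combinations checked over 22 measures, 11 held an animal far from the rest of its group. The limits used would flag about 1 in 20 for normally distributed and independent values. The measures share animals, so the 11 are not read against that rate. Tumor_16840 held Cox6b1 at 3974 CPM (the other tumours 61.3 to 131). In the AT-rich Tumor_16839, Uqcrfs1 was at 322 CPM (33.3 to 123) and Cox7b at 160.5 CPM (57.0 to 100.3). Cox6a1 was at 212 CPM in Tumor_16844 (119 to 152). The AT-rich WT_21592 held Atp5g3 at 846 CPM (186 to 432).

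In the shallow WT_21167, Ndufs1 and Ndufv1 were each at 28.4 CPM, where the other WT animals at 90 dpi held 117 to 148 and 71.8 to 88.9 CPM, and Cox7a2l was at 0 (87.0 to 113 in the others). The mitochondrial share of WT_22178 was 4.30% (2.65 to 3.06% in the other WT animals at 12 dpi) and that of WT_21593 was 1.73% (2.36 to 2.72% in the others at 150 dpi). Cox7a2 was at 114 CPM in WT_22281 (125 to 129 in the others).

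The tumour against WT difference at 150 dpi departed from the CKO against WT difference at 90 dpi for 13 nuclear subunits, by an edgeR contrast of group means. These were Uqcrc1 (-1.23), Cox5a (-1.23), Cox8a (-1.19), Ndufv1 (-1.14), Cox5b (-1.01), Atp5a1 (-0.96), Sdha (-0.92), Ndufs3 (-0.82), Atp5j (-0.72), Ndufb2 (-0.72), Ndufs4 (-0.67), Ndufs1 (-0.62) and Cox4i2 (3.07). The contrast sets tumours beside CKO cells before a tumour, both of the same genotype. The contrast is called the change in the difference from WT below. It called 30% of all genes, 15.8% lower and 14.2% higher. The number of subunits called is thus no result about them. Of the 12 lower ones, 6 were called in every setting tried.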

How the results depend on the processing

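Of the nuclear subunits called lower, 12 of 28 against WT, 23 of 37 against CKO and 6 of 12 for the change in the difference from WT were called in every setting tried (16, 27 and 6 when each animal was left out in turn). None of those called higher was. With RLE size factors the median of all genes went from 0.06 to 0.22 (against WT) and from 0.12 to 0.29 (against CKO), and 19 and 25 nuclear subunits were lower. When only the animals of a contrast were fitted, 13 were lower and 0 higher against WT, 1 was called between CKO and WT at 12 dpi, and 7 nuclear and 7 mitochondrial ones between WT at 90 and 12 dpi. For the RLE fit and the fits of the compared groups alone, the share of all genes called is not given here. Their counts thus do not show whether more subunits than genes in general were lower. Genes of at least 10 CPM gave 1 higher against either group, and the GC offset 4 against WT. Barcoded CKO animals alone gave 0 higher. Leaving out 1 animal gave 17 to 33 lower and 1 to 3 higher against WT (17 without WT_22064), 29 to 39 lower and 1 to 4 higher against CKO (1 without Tumor_16840) with 0 to 1 mitochondrial, and 6 to 16 lower and 0 to 2 higher for the change in the difference from WT (6 without WT_22064, 7 without WT_22255) with 0 to 2 mitochondrial.

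Mitochondrial calls against CKO were 1 with RLE, DESeq2, a mean of at least 10 CPM, barcoded CKO animals or the GC offset. Without the 4 AT-rich animals 3 were called, with 5 against WT and 3 for the change in the difference from WT. For that change 26 nuclear ones were then lower and 3 higher. The counts over all genes in that fit are given above. The change in the difference from WT had 2 higher with RLE, DESeq2, no sex covariate or the GC offset (which gave 2 mitochondrial calls) and 3 with no filter. Without the 4 animals Uqcrfs1 turned to -0.65 and -0.66 and mt-Nd3 against CKO to -1.92, Uqcrfs1 against WT was -0.49 without Tumor_16839, and Cox6b1 against CKO was -0.018 without Tumor_16840. The cause was not tested.

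In small libraries, taking each library as a replicate gave 8 nuclear and 2 mitochondrial calls in 10-cell and 1 and 6 in pool-and-split libraries, and DESeq2 gave 1 nuclear call in 10-cell libraries. Libraries of a set may share an animal, and pool-and-split libraries are aliquots of combined cells. Single libraries are therefore not independent replicates, and no change over time is read from those calls. With the set number as a replicate block, 0 were called in either kind. Sets of the same number correlated at -0.07 to 0.01, and 0 of 4 sets correlated best with its own number, so the numbers did not pair the sets. For spread, deviations from the mean gave 1 nuclear and 1 mitochondrial call at 12 dpi, where 305 of 7926 genes were called. At 90 dpi they gave 18 and 1, where 698 of 9704 genes were called. A pseudocount of 5 gave 1 nuclear call at 90 dpi (55 of 9704 genes). Detection in 90% of libraries gave 7 there (76 of 3282 genes). With copies added, nuclear subunits took 1.04% in WT at 12 dpi and mitochondrial ones 2.37% in WT at 90 dpi. Mitochondrial shares with copies were 16.5 and 18.4% in 10-cell and 14.2 and 12.1% in pool-and-split libraries at 12 and 90 dpi. Depth limits most the values of WT_21167, where a few counts set the level of a subunit.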
